A study of Mus musculus with 15 samples.

Results

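The genes described here are 9 components of bone morphogenetic protein (BMP) signalling: the ligand gene Bmp4, the receptor genes Bmpr1a and Bmpr2, the signal transducer genes Smad1 and Smad5, the inhibitory SMAD gene Smad6, and the target genes Id1, Id2 and Id3. They were chosen by name, with earlier results of these data known, and found by their Ensembl identifiers in a table of 52636 genes. The shares of these genes called below are therefore not those of a blind choice. All 9 were present, and all 9 passed a filter on low counts that left 13451 genes for testing.

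BMP ligands bind complexes of type I receptors, such as BMPR1A, and type II receptors, such as BMPR2, which phosphorylate SMAD1, SMAD5 and SMAD9. These enter the nucleus together with SMAD4 and act on target genes, of which the Id genes are among the best known, while SMAD6 and SMAD7 inhibit the pathway. ID proteins carry no DNA-binding domain and keep E proteins from binding DNA. In pluripotent cells of the mouse, BMP is known for supporting self-renewal through Id genes and, in the epiblast, for inducing mesoderm and germ cells, and ERK is known to phosphorylate the linker region of SMAD1.

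The series holds 15 RNA-seq samples of EpiLCs, that is, epiblast-like cells of the mouse, an in vitro counterpart of the early post-implantation epiblast, made from the embryonic stem cell line CRAFR26. The line carries a c-RAF kinase construct that is induced by 4-hydroxytamoxifen (4OHT), so that ERK signalling can be switched on at a chosen time. Cells of all groups, 0h included, had passed 2 passages as RSCs and 48 h in N2B27 medium with 12 ng/ml bFGF, 20 ng/ml Activin A and 1 µM XAV939, a tankyrase inhibitor, and were then held for 2 h in 250 nM of the FGF receptor inhibitor PD17 (PD173074). No BMP ligand is listed among these additions. The 0h group (n = 3) received no 4OHT, the 2h and 4h groups (n = 4 each) received 250 nM 4OHT for 2 h or 4 h, and the rev group (n = 4) had 4 h of induction and then a MEK inhibitor for 2 h. The inhibitor and the additional 2 h of the rev group cannot be told apart. Clone 4 of the line gave 7 samples and clone 8 gave 8, with 2 samples of each clone in each group except that 0h held 1 sample of clone 4, because the submitters discarded 1 sample of 0h. Samples of one clone and group may be technical repeats, so p-values measure the spread between these samples. Spread beyond counting error, as chi-square per degree of freedom, was 155 at 0h and 206 at 2h between the samples of clone 8. It was only 14.0 between clone 4 and the first clone 8 sample of 0h, and 12.9 between the second clone 4 and first clone 8 samples of 2h. At 4h the clone 8 samples were the closest pair (6.21). The model holds no term for such spread, and its source was not tested.

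Total counts were between 8667880 and 13004556 in the libraries of 0h, 2h and rev, and between 1552022 and 6658950 at 4h. A count of 3, taken here as the level below which a count of 0 says little, was worth 0.161 to 0.423 CPM (counts relative to the library size, scaled by the trimmed mean of M-values) in the former and 0.683 to 1.83 CPM in the latter. This floor covers counting error only. The 7 defining markers of formative epiblast all exceeded a mean of 1 CPM, and their sum was 1373 to 1587 CPM at 0h and 780 to 888 CPM at 4h. Within this list Dnmt3b had a mean of 935 CPM at 0h and 416 CPM at 4h and Dnmt3a of 329 and 222 CPM. Means were also lower at 4h for Fgf5 (23.2 and 9.03 CPM), Sox3 (38.8 and 16.4 CPM) and Pou3f1 (79.3 and 64.0 CPM). Only Otx2 (12.3 and 25.1 CPM) and Lef1 (30.3 and 67.3 CPM) were higher at 4h. Of the core pluripotency markers, Pou5f1 went from a mean of 168 CPM at 0h to 99.0 CPM at 4h. Sox2 went from 22.3 to 111 CPM and Utf1 from 113 to 118 CPM. The summed naive pluripotency markers were 31.9 to 39.3 CPM at 0h and 60.5 to 254 CPM at 4h, and the part of this shift in the values below was not tested. The neural markers Sox1 and Pax6 went from means of 2.96 and 0.785 CPM at 0h to 32.1 and 10.9 CPM at 4h, while Nes went from 55.2 to 22.9 CPM. Summed mesendoderm markers were 3.01 to 4.00 CPM at 0h, 5.92 to 11.8 CPM at 4h and 8.20 to 13.5 CPM in rev, and the part of these lists in the values below was not tested either. Summed trophoblast markers reached 9.63 CPM at most (4h), summed primitive endoderm markers 5.16 CPM (rev) and summed fibroblast markers 15.7 CPM (rev). Induction was visible in Egr1, an immediate early gene of ERK signalling. Its level rose from 0.972 to 3.27 CPM at 0h to 352 to 910 CPM at 2h. It was 31.2 to 220 CPM at 4h and 44.2 to 99.4 CPM in rev, above all 0h samples. Means at 0h, 2h, 4h and rev were 0.856, 91.1, 70.4 and 14.0 CPM for Spry4. They were 3.35, 152, 57.4 and 19.9 CPM for Dusp6 and 0.668, 33.5, 2.90 and 2.14 CPM for Fos. Scaling by total counts in place of the trimmed mean moved the median log2 fold change of all tested genes to -0.18 in 2h vs 0h, -0.73 in 4h vs 0h, -0.57 in 4h vs 2h, 0.45 in rev vs 4h and -0.30 in rev vs 0h. The share of called genes that were higher then went from 52.0% to 7.11% in 4h vs 0h, from 50.6% to 9.09% in 4h vs 2h, from 49.2% to 88.0% in rev vs 4h and from 58.2% to 31.9% in rev vs 0h. In bulk RNA, fewer expressing cells and less RNA per cell cannot be told apart.

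Promoters are shown for Id2, Id3 and their relative Id4, since these genes rose together at 2h. Each is the 250 bases before the start site in RefSeq on GRCm38.p6, 5′ to 3′ on the strand of the gene: chr12:25096093-25096342 on the minus strand for Id2, chr4:136143572-136143821 on the plus strand for Id3 and chr13:48260866-48261115 on the plus strand for Id4. Capitals mark matches, on either strand, to GGCGCC or GTCTAGAC (SMAD1/5 and general SMAD sites), GCGNGGGCG (EGR family), CCGGAAG (ETS family), TGACG (CREB/ATF family), TGANTCA (AP-1), the CArG box of the serum response element and the BMP response element.
Id2: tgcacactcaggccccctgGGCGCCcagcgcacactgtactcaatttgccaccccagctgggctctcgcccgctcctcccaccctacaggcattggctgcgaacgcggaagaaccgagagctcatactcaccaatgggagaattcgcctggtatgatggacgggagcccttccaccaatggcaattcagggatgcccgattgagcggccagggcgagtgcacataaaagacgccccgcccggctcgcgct
Id3: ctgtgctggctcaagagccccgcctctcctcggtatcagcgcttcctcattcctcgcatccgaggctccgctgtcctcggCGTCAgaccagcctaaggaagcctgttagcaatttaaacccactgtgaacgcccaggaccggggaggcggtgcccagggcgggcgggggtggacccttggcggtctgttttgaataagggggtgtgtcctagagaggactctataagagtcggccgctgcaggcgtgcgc
Id4: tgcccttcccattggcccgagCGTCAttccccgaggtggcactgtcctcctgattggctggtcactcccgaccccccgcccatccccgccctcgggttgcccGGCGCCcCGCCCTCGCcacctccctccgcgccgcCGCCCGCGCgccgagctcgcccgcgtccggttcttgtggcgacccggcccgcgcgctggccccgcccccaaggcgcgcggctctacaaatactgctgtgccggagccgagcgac
The Id2 window held 1 GGCGCC and the Id3 window 1 TGACG. The Id4 window held 1 GGCGCC, 1 TGACG and 2 GCGNGGGCG sites, the first of which starts directly behind the GGCGCC, apart by 1 base. Of 32851 windows of this length in the RefSeq table, 9.59% held GGCGCC, 17.8% TGACG and 4.70% GCGNGGGCG. GTCTAGAC (0.167% of all windows), CCGGAAG (6.91%), TGANTCA (6.75%), the CArG box (1.47%) and the BMP response element (0.277%) had no match in these 3 windows. RefSeq windows were matched for 8 of the 9 genes, with none for Id1, and a match describes letters only. In the GENCODE M21 annotation the Id2 and Id3 windows lie inside the gene, whose outermost start differs from that used in RefSeq.

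Genes were compared with edgeR's quasi-likelihood F test in a model of group and clone over all 15 samples, and a gene was called at a Benjamini-Hochberg adjusted p under 0.05 over all 13451 genes. Within clones, contrasts with 0h in clone 4 and the clone differences built on them have 1 clone 4 sample at 0h, which the model assumes to vary like the other groups. At 2h, Id1, Id2 and Id3 rose against 0h and no other of the 9 genes was called. That is 3 of 9, where 6.45% of all tested genes were called. At 4h vs 0h, 4 of 9 were called (Id1, Id2, Bmp4 and Smad5, all higher), where 39.4% of all tested genes were called, so that this share is close to the background. Both receptor genes, Smad1 and Smad6 were called in none of the 5 comparisons between groups over both clones. Under scaling by total counts Smad1 (-0.92, adjusted p = 0.00983) and Smad6 (-1.39, adjusted p = 0.00496) were called lower at 4h vs 0h, beside a median of -0.73 over all tested genes. The median log2 fold change of the 9 genes was 0.42 at 2h vs 0h and 0.33 at 4h vs 0h, beside 0.01 and 0.03 over all tested genes.

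**Figure D1:**
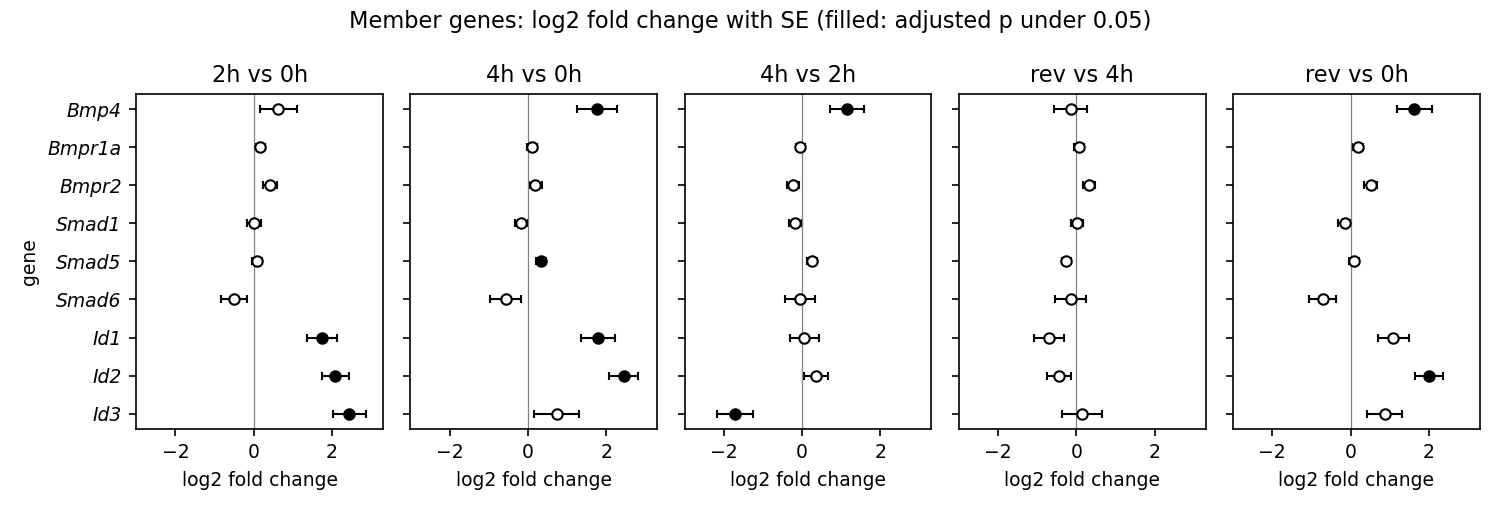
Log2 fold change (x axis) of the 9 genes (y axis) in 5 comparisons between groups, with the standard error of the model as bars and filled points where the adjusted p was under 0.05. At 2h vs 0h the filled points are the 3 Id genes, and in rev vs 4h no point is filled.

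Id1 (chr2:152736251-152737410, plus strand, as are all positions from GENCODE M21 on GRCm38) encodes an inhibitor of E proteins and is a classic BMP target. Its level was 0.810 CPM in clone 4 and 0.401 and 0.606 CPM in clone 8 at 0h. At 2h it was 2.84 and 1.95 CPM in clone 4 and 1.74 and 1.98 CPM in clone 8, so that each 2h sample lay above each 0h sample. The log2 fold change was 1.74 (SE 0.379, adjusted p = 0.00667). Without the clone 4 sample of 0h it was again 1.74, with an adjusted p of 0.0703. Within clone 4 the value was 1.54 (adjusted p = 0.0865) and within clone 8 it was 1.93 (adjusted p = 0.0201), the latter lost in 4 of 15 fits without 1 library. With Id2 and Id3, 2 of 9 members were called at 2h in clone 4 and 3 of 9 in clone 8, where 4.33% and 2.42% of all tested genes were called. DESeq2 called 2 of 9 in clone 4 and 1 of 9 in clone 8, where Id1 (adjusted p = 0.0625) and Id3 (adjusted p = 0.0664) were not called. With the replicate number as a block, Id3 in clone 8 had an adjusted p of 0.0587. Under scaling by total counts Id1 in clone 8 was 2.06 (adjusted p = 0.0594) and Id3 in clone 4 was 2.07 (adjusted p = 0.0929).

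At 4h Id1 was 4.28 and 3.95 CPM in clone 4 and 0.911 and 0.754 CPM in clone 8, from counts of 7, 16, 4 and 2. Clone 4 held the highest values of the series, while of the clone 8 values 1 lay within the range of 0h and 1 just above it. Over both clones 4h vs 0h gave 1.79 (SE 0.435, adjusted p = 0.00252), and under scaling by total counts 0.99 (adjusted p = 0.0962). Within clone 4, against its 1 sample of 0h, the log2 fold change was 2.31 (adjusted p = 0.00299), or 1.40 under scaling by total counts (adjusted p = 0.115). Within clone 8 it was 0.79 (adjusted p = 0.355). The difference between the clones of -1.52 (SE 0.791) did not pass the test (adjusted p = 0.361).

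In rev, Id1 was 1.96 and 1.03 CPM in clone 4 and 0.987 and 1.45 CPM in clone 8. These levels lay above all of 0h, but rev vs 0h was not called (log2 fold change 1.10, SE 0.397, adjusted p = 0.0781). Leaving out all 4h libraries gave 1.12 with an adjusted p of 0.0263. Against 4h, Id1 fell within clone 4 by 1.40 on the log2 scale (adjusted p = 0.0262), whereas clone 8 gave 0.54 (adjusted p = 0.521). The difference between the clones in this step had an unadjusted p under 0.05 in edgeR but was not called. The clone 4 call was lost under DESeq2 (adjusted p = 0.0787) and without the first or second clone 4 sample of 4h (adjusted p of 0.0724 and 0.119) or the second of rev (-1.03, adjusted p = 0.177).

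Id2 (chr12:25093799-25097140, minus strand), whose promoter is printed above, encodes a relative of ID1 with wide roles in lineage choice. It was called higher at 2h, at 4h and in rev, each against 0h. At 0h it was 0.918 CPM in clone 4 and 0.668 and 0.727 CPM in clone 8, and at 2h it was 3.18 and 5.92 CPM in clone 4 and 2.44 and 2.79 CPM in clone 8. No 2h value overlapped 0h, and the log2 fold change was 2.08 (SE 0.349, adjusted p = 0.000594). It passed the test within clone 4, against its 1 sample of 0h (2.30, adjusted p = 0.0038), and within clone 8 (1.90, adjusted p = 0.00731). These calls rest on few samples: under scaling by total counts clone 4 gave 1.74 (adjusted p = 0.113), and clone 4 gave 1.77 with an adjusted p of 0.0629 without its second 2h sample, and clone 8 gave adjusted p of 0.162 and 0.0779 without its first or second 0h sample.

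At 4h Id2 was 6.11 and 8.64 CPM in clone 4 and 1.59 and 3.02 CPM in clone 8. Clone 4 was the higher, and all 4 values exceeded 0h. The log2 fold change of 4h vs 0h was 2.44 (SE 0.378, adjusted p = 3.43e-05), with 3.03 in clone 4 (adjusted p = 0.00011) and 1.65 in clone 8 (adjusted p = 0.0109). The clone 8 value was no longer called without either of its 0h samples (adjusted p of 0.0891 and 0.0512) or without its second 4h sample (1.17, adjusted p = 0.142), and was 0.95 under scaling by total counts (adjusted p = 0.236). A difference between the clones of -1.38 (SE 0.640) did not pass the test (adjusted p = 0.288).

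In rev, Id2 was 3.01 and 3.61 CPM in clone 4 and 3.38 and 3.11 CPM in clone 8, a narrow range that lay above all of 0h. Rev vs 0h gave 2.00 (SE 0.354, adjusted p = 0.000726). It was called in clone 4 (1.83, adjusted p = 0.014) and in clone 8 (2.21, adjusted p = 0.00148), but under scaling by total counts in neither (1.45, adjusted p = 0.307, and 1.86, adjusted p = 0.0521). Within the clones, 7.32% and 4.81% of all tested genes were called, and it was the 1 member called in each. The call was lost without the second clone 4 sample of rev (1.68, adjusted p = 0.0812) and, in clone 8, without its first 0h sample (2.13, adjusted p = 0.0516). Against 4h, Id2 fell within clone 4 by 1.2 on the log2 scale (adjusted p = 0.022) and was 0.56 in clone 8 (adjusted p = 0.341). The difference between the clones in this step was not called by edgeR, although its unadjusted p was under 0.05. Without the filter on low counts it was 1.77 (adjusted p = 0.0493). The clone 4 fall was lost without its second 4h sample (-0.90, adjusted p = 0.241) and without its first or second rev sample (adjusted p of 0.143 and 0.0659).

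Id3 (chr4:136143497-136145755, plus strand) encodes a further E protein inhibitor. It was 0.540 CPM in clone 4 and 0.334 and 0.485 CPM in clone 8 at 0h, and 4.43 and 2.56 CPM in clone 4 and 1.13 and 2.57 CPM in clone 8 at 2h. All 2h values lay above 0h. The rise of 2.44 (SE 0.414, adjusted p = 0.000594) was called within clone 4 (2.65, adjusted p = 0.0214) and within clone 8 (2.24, adjusted p = 0.0416). The clone 4 call was lost without its first 2h sample (2.2, adjusted p = 0.0895). The clone 8 call was lost in 7 of 15 fits without 1 library, with an adjusted p of up to 0.374.

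Id3 was lower again at 4h. It was 1.22 and 0.987 CPM in clone 4 and 0.911 and 0 CPM in clone 8, from counts of 2, 4, 4 and 0, and the zero allows up to 1.13 CPM in that library. 4h vs 2h gave -1.71 (SE 0.454, adjusted p = 0.00473), although the ranges touched, since the lowest 2h value lay below the highest 4h value. Leaving out each library in turn gave -2.0 to -1.42, and the call held in all 15 fits. Within the clones 4h vs 2h was not called for Id3 (-1.69, adjusted p = 0.0558 in clone 4, and -1.76, adjusted p = 0.0697 in clone 8). Id1 in clone 8 was likewise lower at 4h than at 2h without a call (-1.13, adjusted p = 0.11), and whether the Id genes differ in this step was not tested. 4h vs 0h was not called (0.73, SE 0.574, adjusted p = 0.328). In rev, Id3 was 0.981 and 0.826 CPM in clone 4 and 0.987 and 0.726 CPM in clone 8, all above 0h, with a log2 fold change of 0.87 that was not called (SE 0.457, adjusted p = 0.232).

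**Figure D2:**
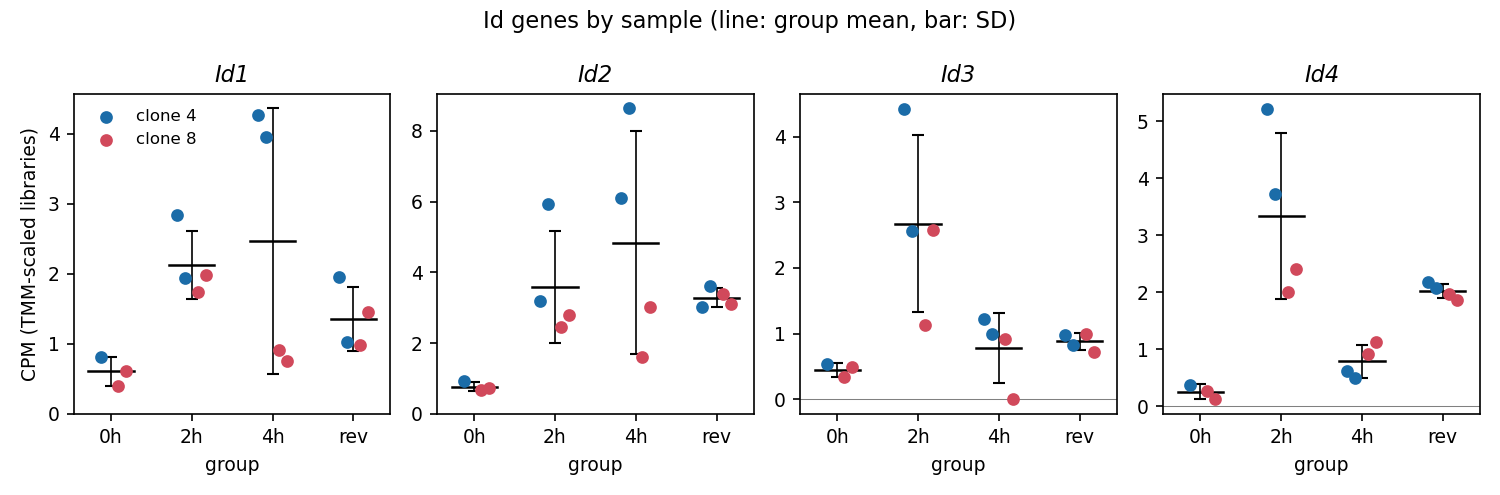
CPM (y axis) of Id1, Id2, Id3 and Id4 in each sample by group (x axis), coloured by clone, with the group mean as a line and the SD as a bar. All 2h samples lie above all 0h samples in each panel, and Id3 and Id4 are lower again at 4h.

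Id4, the fourth gene of the family and no member of the 9, was called higher at 2h, at 4h and in rev vs 0h. It was 0.378 CPM in clone 4 and 0.267 and 0.121 CPM in clone 8 at 0h, and 5.22 and 3.71 CPM in clone 4 and 2.01 and 2.41 CPM in clone 8 at 2h. The groups did not overlap, and the log2 fold change was 3.43 (SE 0.363, adjusted p = 1.81e-06). At 4h it fell by 1.98 against 2h (adjusted p = 0.00022) and in rev it rose again by 1.31 against 4h (adjusted p = 0.0133), a call that was lost without the second clone 4 sample of 4h (0.95, adjusted p = 0.0988). Counts at 4h were 1, 2, 4 and 3. Of the 3 E protein genes that the IDs act on, Tcf3, Tcf4 and Tcf12, none was called at 2h vs 0h. Tcf4 was called higher at 4h vs 0h, a direction that reversed under scaling by total counts. In rev vs 0h, 1 of the 7 Id and E protein genes was called lower. All rev samples of Tcf3 lay below all of 0h, with means of 51.0 and 74.2 CPM.

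Bmp4 (chr14:46383520-46390669, minus strand), the ligand of the set, was low throughout, and was called against 0h at 4h and in rev but not at 2h. It was 0.648 CPM in clone 4 and 0.201 and 0.727 CPM in clone 8 at 0h, and 0.908 and 1.41 CPM in clone 4 and 0.523 and 0.589 CPM in clone 8 at 2h. The ranges overlapped, and 2h vs 0h was not called (0.63, SE 0.464, adjusted p = 0.467). The gene overlaps Gm15217 on the opposite strand, and with the handling of strand not given in the sources used here their reads cannot be told apart.

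At 4h Bmp4 was 3.67 and 3.46 CPM in clone 4 and 1.14 and 0 CPM in clone 8, from counts of 6, 14, 5 and 0. Clone 4 lay above all 0h samples, and clone 8 spanned the range of 0h. 4h vs 0h gave 1.77 (SE 0.507, adjusted p = 0.00842), but without the clone 4 sample of 0h it was 1.43 (adjusted p = 0.0982) and without the second clone 4 sample of 4h it was 1.49 (adjusted p = 0.0598). Under scaling by total counts it was 0.97 (adjusted p = 0.133). Within clone 4 it was 2.42 (adjusted p = 0.0135), and within clone 8 it was 0.73 (adjusted p = 0.546). The clone 4 call too was lost without the second clone 4 sample of 4h, at 2.45 with an adjusted p of 0.0643. 4h vs 2h gave 1.14 (SE 0.441, adjusted p = 0.0444), a call that was lost in 12 of 15 fits without 1 library, with values of 0.87 to 1.43. Under scaling by total counts it was 0.56 (adjusted p = 0.364), and 4h vs 0h in clone 4 was 1.5 (adjusted p = 0.11). At 4h vs 2h, 2 of 9 members were called (Bmp4 higher, Id3 lower), where 38.9% of all tested genes were called.

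In rev, Bmp4 was 2.31 and 2.27 CPM in clone 4 and 1.13 and 1.25 CPM in clone 8. Each rev sample lay above each 0h sample, and the log2 fold change of rev vs 0h was 1.63 (SE 0.451, adjusted p = 0.0231). It was lost without the clone 4 sample of 0h (1.30, adjusted p = 0.258), without the first clone 8 sample of 0h (1.38, adjusted p = 0.0971) and without the second clone 8 sample of rev (1.54, adjusted p = 0.0733). With Id2, Bmp4 made 2 of 9 members called in rev vs 0h, where 11.2% of all tested genes were called. Over all groups Bmp4 was lower in clone 8 than in clone 4 by 1.18 on the log2 scale (SE 0.301, adjusted p = 0.00832), and this call held in all 15 fits without 1 library.

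Of the other ligand genes, 5 of 15 (Bmp4 included) had enough counts to be tested. Gdf3, a ligand of the TGF-beta family, was the other one called and is named for that after its values were seen. It fell by 0.51 at 2h vs 0h (adjusted p = 0.036, lost in 6 of 15 fits without 1 library), rose by 0.63 at 4h vs 0h (adjusted p = 0.00189) and fell by 1.03 in rev vs 4h (adjusted p = 8.15e-06). Under scaling by total counts the 4h vs 0h value was -0.13. Bmp2 held 2 to 8 counts in the libraries of 0h, 2h and rev and 0 counts in all 4 libraries of 4h, where 3 counts correspond to 0.683 to 1.83 CPM. This floor of a single library lay above all Bmp2 values of the other groups, at most 0.619 CPM. Bmp2 did not pass the filter, so whether it fell at 4h was not tested. Bmp6, Bmp7 and Bmp8b were called in none of the 5 comparisons.

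Neither receptor gene was called between groups in the model used here. Bmpr1a (chr14:34410734-34503341, minus strand), the type I receptor, was the highest of the 9 genes per length, at 7.37 CPM per kb of exon (SD 0.294, n = 3) at 0h. It was 45.4, 46.1 and 48.9 CPM at 0h, 44.1 to 63.8 CPM at 2h, 40.9 to 59.6 CPM at 4h and 50.3 to 58.3 CPM in rev. Log2 fold changes were 0.16, 0.11 and 0.18 for 2h, 4h and rev vs 0h, with SE of 0.129, 0.130 and 0.129, and no call. The rev samples lay just above all 0h samples without passing the test (adjusted p = 0.398). Gm17110 overlaps Bmpr1a on the opposite strand.

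Bmpr2 (chr1:59763400-59879014, plus strand), the type II receptor, was 26.9, 34.0 and 34.5 CPM at 0h, 32.8 to 52.1 CPM at 2h, 28.1 to 40.3 CPM at 4h and 36.7 to 50.9 CPM in rev. Rev lay above 0h in all samples, and the log2 fold change was 0.51 (SE 0.170, adjusted p = 0.0565). Leaving out 1 library brought the adjusted p under the threshold in 3 of 15 fits, namely without the second clone 4 sample of 2h (0.0345), the second clone 8 sample of 2h (0.026) and the first clone 8 sample of rev (0.0304). At 2h vs 0h the value was 0.42 (SE 0.169, adjusted p = 0.155), and 0.56 without the second clone 8 sample of 2h (adjusted p = 0.0373). Without the filter on low counts Bmpr2 was called in 2h vs 0h (0.40, adjusted p = 0.0447), 4h vs 2h (-0.34, adjusted p = 0.0355), rev vs 4h (0.41, adjusted p = 0.00792) and rev vs 0h (0.48, adjusted p = 0.0064). The legacy quasi-likelihood called rev vs 0h (adjusted p = 0.0427). Scaling by total counts called 4h vs 2h (-0.76, adjusted p = 0.016) and rev vs 4h (0.76, adjusted p = 0.0266), which are -0.19 and 0.31 relative to the shift of the median.

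**Figure D3:**
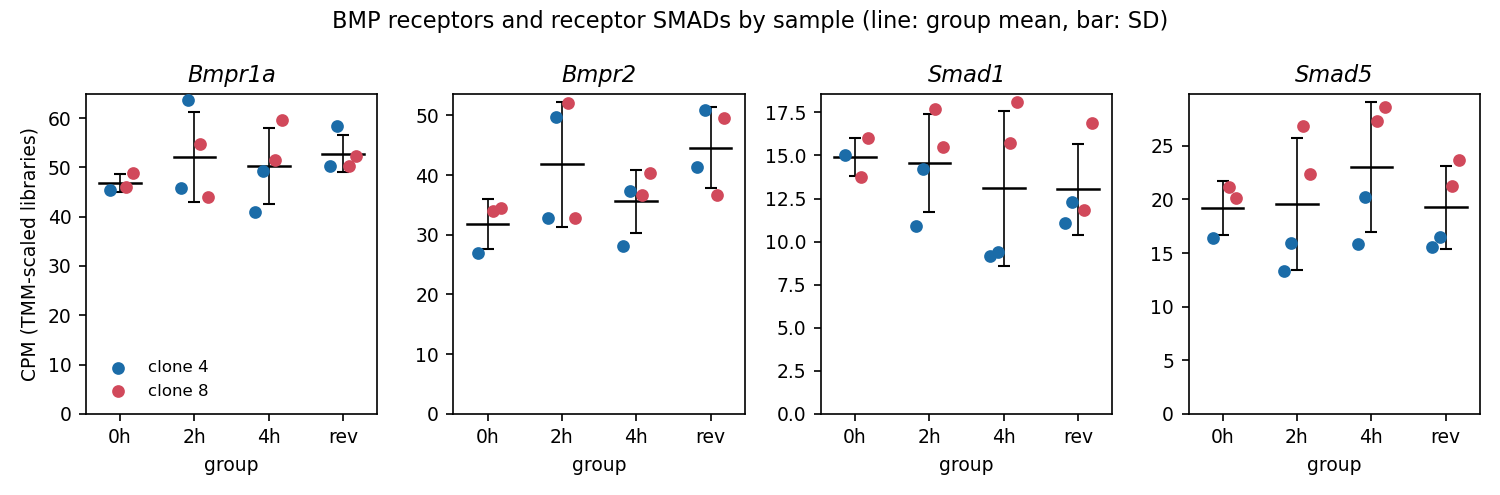
CPM (y axis) of Bmpr1a, Bmpr2, Smad1 and Smad5 in each sample by group (x axis), coloured by clone, with the group mean as a line and the SD as a bar. Groups overlap for Smad1 and Smad5 in all comparisons, and the clone 8 points of Smad5 lie above those of clone 4 in each group.

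Smad1 (chr8:79338395-79399518, minus strand) and Smad5 encode the SMADs that the BMP receptors phosphorylate. Smad1 was 15 CPM in clone 4 and 13.8 and 16.0 CPM in clone 8 at 0h. At 4h it was 9.16 and 9.38 CPM in clone 4 and 15.7 and 18.1 CPM in clone 8, so that clone 4 lay below the range of 0h and 1 of the clone 8 samples above it. Over both clones the log2 fold change was -0.17 (SE 0.174, adjusted p = 0.467). Within clone 4 it fell by 0.69 (adjusted p = 0.042), and within clone 8 it was 0.18 (adjusted p = 0.533). That clone 4 call was lost under DESeq2 (adjusted p = 0.105) and without either clone 4 sample of 4h (adjusted p of 0.0924 and 0.0979), the first clone 8 sample of 0h (0.0534) or the first clone 4 sample of rev (0.0526). The difference between the clones of 0.87 (SE 0.316) did not pass the test (adjusted p = 0.148).

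Smad5 (chr13:56703010-56742377, plus strand) overlaps Gm27301 on the same strand. It was 16.4 CPM in clone 4 and 21.1 and 20.1 CPM in clone 8 at 0h, and 15.9 and 20.2 CPM in clone 4 and 27.3 and 28.6 CPM in clone 8 at 4h. The 4h range overlapped 0h through clone 4. 4h vs 0h gave 0.33 (SE 0.131, adjusted p = 0.0471), a call that was lost in 11 of 15 fits without 1 library and became -0.43 under scaling by total counts, or 0.29 relative to the shift of the median. Between the clones Smad5 was higher in clone 8 by 0.56 (SE 0.0885, adjusted p = 9.96e-05), with 0.51 to 0.62 in the 15 fits without 1 library. Under scaling by total counts it was 0.54 and was not called (adjusted p = 0.101).

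Smad6 (chr9:63953076-64022059, minus strand) encodes an inhibitor that competes with SMAD4 and blocks receptor access, and it is itself a known BMP target. It was 3.08 CPM in clone 4 and 3.21 and 2.79 CPM in clone 8 at 0h, and 1.59 and 1.5 CPM in clone 4 and 2.09 and 3.16 CPM in clone 8 at 2h. At 4h it was 0.611 and 0.247 CPM in clone 4, which is 1 count in each library, and 3.87 and 3.39 CPM in clone 8, from 17 and 9 counts. At 4h the 2 clones lay on either side of 0h without overlap.

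Within clone 4 Smad6 fell at 4h vs 0h by 3.06 in the fit (SE 0.595, adjusted p = 0.000767). The pooled counts gave 8.75-fold lower at 4h, with an exact 95% interval of 2.31-fold to 74.0-fold that covers counting error only. Without the second clone 4 sample of 4h the fitted change fell by 2.34 with an adjusted p of 0.0505. This contrast, and the clone difference built on it, rest on 1 clone 4 sample at 0h. Clone 8 gave 0.28 (adjusted p = 0.578). In 4h vs 0h, 5 of 9 members were called in clone 4 and 1 (Id2) in clone 8, where 27.1% and 26.5% of all tested genes were called. The difference between the clones was 3.34 (SE 0.701, adjusted p = 0.00616), which made Smad6 the 1 of 9 members called for a clone difference in 4h vs 0h, where 3.87% of all tested genes were called. It was lost under DESeq2 (adjusted p = 0.123), under scaling by total counts (3.60, adjusted p = 0.0781) and without the second clone 4 sample of 4h (2.61, adjusted p = 0.117).

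In rev, Smad6 was 1.61 and 1.34 CPM in clone 4 and 2.40 and 1.76 CPM in clone 8, so that clone 4 was up from 4h, clone 8 was down, and all lay below 0h. Rev vs 4h gave 2.02 in clone 4 (adjusted p = 0.0257), or 4.27-fold with an exact 95% interval of 1.10-fold to 36.6-fold from pooled counts, and -0.82 in clone 8 (adjusted p = 0.103). The clone 4 call was lost under DESeq2 (adjusted p = 0.241) and without the second clone 4 sample of 4h (1.26, adjusted p = 0.371) or the first of rev (1.87, adjusted p = 0.0955). The difference between the clones was -2.84 (SE 0.701, adjusted p = 0.0303), again 1 of 9 members, where 2.80% of all tested genes were called. The difference was lost in 7 of 15 fits without 1 library, with an adjusted p of up to 0.248, and under DESeq2 (0.348). Rev vs 0h over both clones gave -0.71 (SE 0.339, adjusted p = 0.184). Leaving out all 4h libraries gave -0.75 with an adjusted p of 0.0393.

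**Figure D4:**
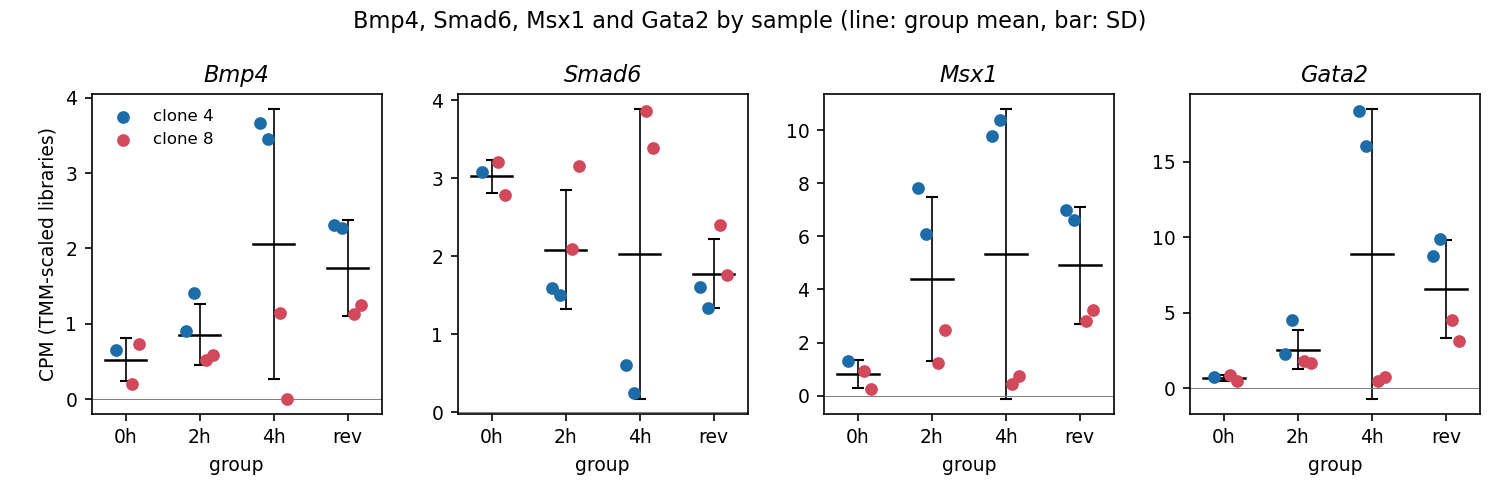
CPM (y axis) of Bmp4, Smad6, Msx1 and Gata2 in each sample by group (x axis), coloured by clone, with the group mean as a line and the SD as a bar. At 4h clone 4 lies above clone 8 for Bmp4, Msx1 and Gata2 and below it for Smad6.

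No member was called in rev vs 4h over both clones, where 30.8% of all tested genes were called. At an unadjusted p under 0.05 there was 1 (Smad5, log2 fold change -0.25), and DESeq2 called 0. Within clone 4, 3 of 9 were called (Id1 and Id2 lower, Smad6 higher), where 17.0% of all tested genes were called. Within clone 8 none was called by edgeR, where 23.4% were, 1 (Smad6) had an unadjusted p under 0.05, and DESeq2 called 0. In clone 8 the values of Id1, Id2, Id3 and Bmp4 in rev vs 4h were 0.54, 0.56, 0.60 and 0.79, and in clone 4 they were -1.40, -1.2, -0.22 and -0.62. None of these genes was called for a clone difference in this step, where Smad6 was the 1 of 9 members called. Id1 and Id2 had an unadjusted p under 0.05 there, and DESeq2 called 0 members.

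Between the clones over all groups, 5 of 9 members were called, where 18.5% of all tested genes were called. Bmp4 and Id2 were lower in clone 8, by 1.18 and 0.71 on the log2 scale, and Smad1, Smad5 and Smad6 were higher, by 0.39, 0.56 and 0.74. Without the 4h libraries 2 remained in number, and Id2 (-0.42, adjusted p = 0.167), Smad1 (0.25, adjusted p = 0.148) and Smad6 (0.43, adjusted p = 0.149) were not called. Leaving out 1 library ended the call of Smad6 in 11 of 15 fits, of Id2 in 5 and of Smad1 in 3. At 2h vs 0h no member differed between the clones in its response, where 0.23% of all tested genes did. No member had an unadjusted p under 0.05 there, and DESeq2 called 0. In rev vs 0h the counts were likewise 0, 0 and 0, where 0.0818% of all tested genes were called. In 4h vs 2h, 0 of 9 were called, where 3.14% of all tested genes were, with 2 (Id1 and Smad6) at an unadjusted p under 0.05 and 0 by DESeq2.

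Per length, the order of the 9 genes at 0h was Bmpr1a at 7.37 CPM per kb, Smad5 at 2.59, Smad1 at 2.38, Bmpr2 at 1.77, Smad6 at 0.944, Id1 at 0.522, Id2 at 0.316, Id3 at 0.253 and Bmp4 at 0.234 (means, n = 3). The ranges of Smad5 and Smad1 overlapped, as did those of each neighbouring pair among Id1, Id2, Id3 and Bmp4, while Bmpr1a, Bmpr2 and Smad6 overlapped no neighbour. At 2h the Id genes reached 1.83 (Id1), 1.47 (Id2) and 1.49 CPM per kb (Id3), with overlapping ranges.

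Across the 15 samples the members' log2 CPM (prior count 2) moved together to differing degrees, described here without a test because samples share groups and clones. Pearson's r was 0.82 between Id1 and Id2, 0.64 between Id1 and Id3 and 0.40 between Id2 and Id3. Smad6 ran opposite to Id1 (-0.79), Id2 (-0.77) and Bmp4 (-0.77) and with Smad1 (0.77), and the receptor genes ran with each other (0.84). The genes most like Id1 among all tested genes were Rbm6 (0.92), Ache (0.91) and Sh2b3 (0.91). Those most like Id2 were Ywhaz (0.95), Utp14b (0.94) and Spred3 (0.93). The genes most like Id3 were Zwint (0.91), Sertad1 (0.91) and Gm11766 (0.91), and those most like Bmp4 were Zfp612 (0.93), Ankrd24 (0.93) and Col7a1 (0.90).

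A wider list of 83 BMP pathway genes was written from general knowledge, but with earlier results of these data known. Its shares of called genes are therefore not those of an independent list. In the table were 82, and 56 passed the filter, of which 47 are not among the 9. At 2h vs 0h, 13 of the 56 were higher and 3 lower, where 3.98% of all tested genes were higher and 2.46% lower. The median log2 fold change of the list was 0.17, beside 0.01 over all tested genes. The 13 were the 4 Id genes, the targets Msx1, Msx2 and Hes1, the inhibitors Smad7, Fst, Skil, Tgif1 and Tob1, and the protease Tll1. By role, 4 of 7 Id and E protein genes, 3 of 12 target genes, 3 of 9 intracellular regulators, 2 of 8 extracellular modulators, 1 of 5 SMADs and no ligand or receptor rose. In 4h vs 2h, 16 of the 56 were higher and 11 lower, where 19.7% of all tested genes were higher and 19.2% lower. Rgma, a co-receptor gene, was among the higher (1.77, adjusted p = 0.000375). Of the 13, 8 were among the lower, Id3 included, but the 13 were chosen for high values in the same 2h libraries, so nothing is read from this count. Of the 13, 4 were called higher also at 4h and in rev vs 0h (Id2, Id4, Msx1 and Tgif1). Both contrasts reuse the 0h libraries by which the 13 were chosen, so nothing is read from this count either.

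Smad7, the other inhibitory SMAD, is outside the rule for named genes and was chosen after its values were seen, for comparison with Smad6. It was 24.1, 28.1 and 27.3 CPM at 0h, 65 and 57.8 CPM in clone 4 and 65.4 and 82.3 CPM in clone 8 at 2h, and 18.8, 19.2, 22.0 and 25 CPM in rev. It rose at 2h without overlap and was back within or below the 0h range in rev. The log2 fold change was 1.40 at 2h vs 0h (SE 0.107, adjusted p = 2.32e-08) and -1.22 in rev vs 4h (adjusted p = 9.37e-09). Fst, which encodes follistatin, an extracellular antagonist of activin and BMP ligands, rose by 1.92 at 2h vs 0h (adjusted p = 0.000392), fell by 1.15 in 4h vs 2h and rose by 1.34 in rev vs 4h. Msx1, a homeobox gene and BMP target, rose by 1.92 at 2h vs 0h (adjusted p = 0.0232), a call that was lost without the clone 4 sample of 0h (1.46, adjusted p = 0.255), the second clone 8 sample of 0h (0.0657) or the second clone 4 sample of 2h (0.0515).

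At 4h vs 0h, 20 of the 56 were higher and 5 lower, where 20.5% of all tested genes were higher and 18.9% lower. Of the 12 target genes, 7 were higher and 1 was lower, with a median of 1.81 for the 12. Of the 7 Id and E protein genes, 4 were higher, with a median of 0.73. Prdm1, a regulator of germ cell fate, rose by 2.59 (SE 0.285, adjusted p = 5.32e-07), and Tbx3, a T-box gene that is also a naive pluripotency marker, by 2.48 (adjusted p = 2.15e-05). Runx2 rose by 3.31 (adjusted p = 9.29e-05). In 4h vs 2h it was 9.65-fold higher from pooled counts of 22 against 9 (exact 95% interval 4.27-fold to 23.8-fold, counting error only). Its 4h samples ran from 0.228 to 4.28 CPM and overlapped those of 0h, at 0 to 0.324 CPM. Over all groups Runx2 was lower in clone 8 than in clone 4 by 1.74 on the log2 scale (adjusted p = 0.000573). Gata2 rose by 2.85 (adjusted p = 0.0121), but its 4h samples were 18.3 and 16.0 CPM in clone 4 and 0.455 and 0.754 CPM in clone 8, and the call was lost without the clone 4 sample of 0h (2.05, adjusted p = 0.105).

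In rev vs 4h, 8 of the 56 were higher and 14 lower, where 15.1% of all tested genes were higher and 15.6% lower. Bambi, a pseudoreceptor that blocks BMP receptors and a known BMP target, was 6.91, 4.81 and 5.45 CPM at 0h, 0.611 and 0.987 CPM in clone 4 and 2.28 and 1.51 CPM in clone 8 at 4h, and 3.63 to 5.75 CPM in rev. All 4h values lay below all samples of the other groups, and between 4h and rev Bambi rose by 1.75 (SE 0.337, adjusted p = 0.000455). Rgmb, a co-receptor, likewise rose by 1.82 (SE 0.226, adjusted p = 3.25e-06), and Prdm1 fell by 1.61 (adjusted p = 5.36e-05). In rev vs 0h, 14 were higher and 4 lower, where 6.49% of all tested genes were higher and 4.66% lower, and 7 of the 12 target genes were among the 14. The largest changes named by the rule were Runx2 (3.75, adjusted p = 3.22e-05), Gata2 (2.82, 0.029), Id4 (2.77, 4.21e-05), Msx1 (2.22, 0.00717) and Fst (2.11, 0.000123). Between the clones over all groups, the receptor gene Bmpr1b was higher in clone 8 by 1.06 on the log2 scale (adjusted p = 0.0405). Among the genes of the list called in none of the 5 comparisons were Bmpr1a, Bmpr2, Smad1, Smad4, Smad6, Acvr1 and Acvr2a.

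**Figure D5:**
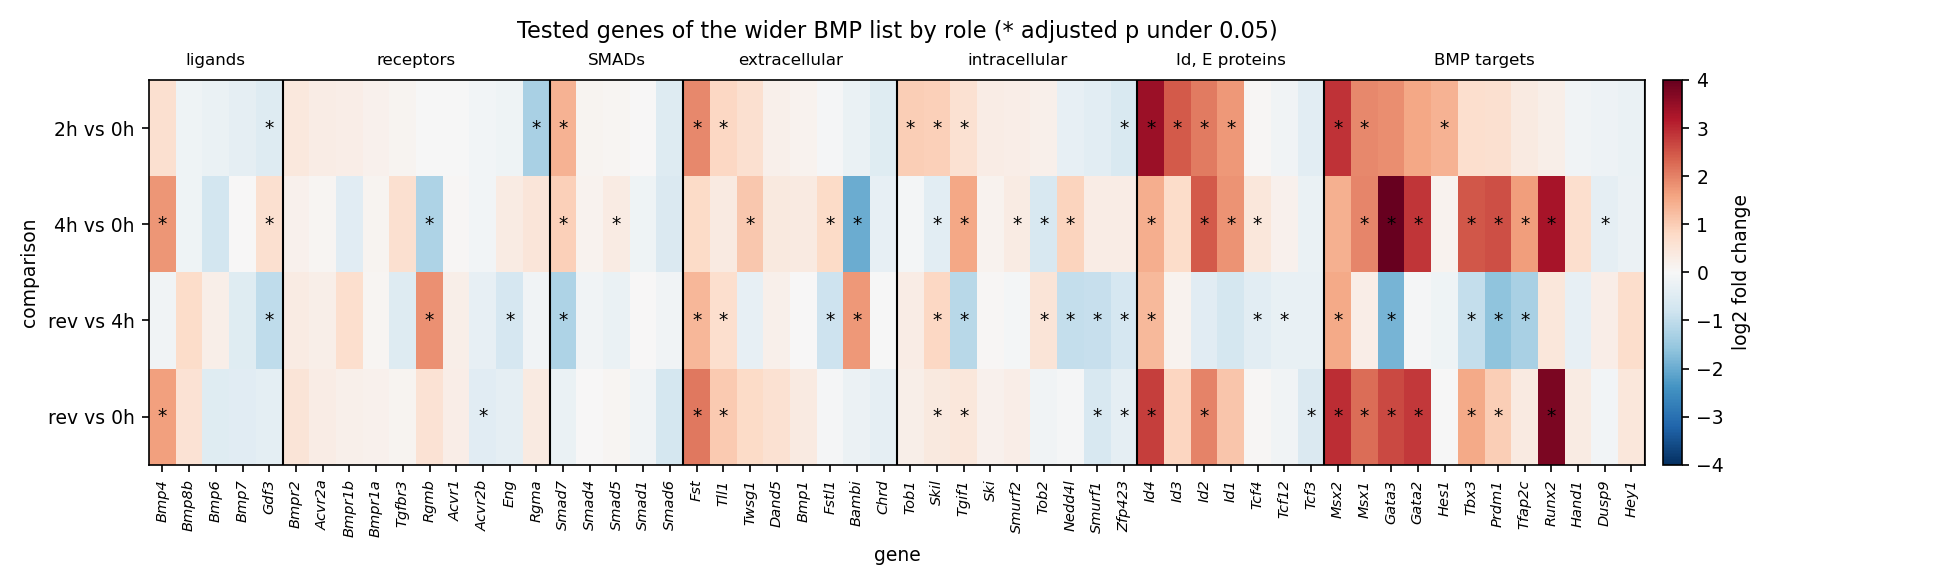
Log2 fold change (colour, drawn from -4 to 4, larger values at the limit) of the 56 tested genes of the wider list (x axis, by role) in 4 comparisons (y axis), with an asterisk where the adjusted p was under 0.05. The Id genes and part of the target genes are red at 2h vs 0h, while 9 of the 10 receptor genes and all of the SMADs except Smad7 carry no asterisk there.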

How the data were processed

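The authors deposited a table of raw counts per gene, and per the submitters' processing notes bcl2fastq 2.19.1, STAR 2.5.3a and the build mm10 were used; the counter, annotation and use of strand are not given in the sources used here. Per the labels' protocols, libraries were made from total RNA after removal of ribosomal RNA. Symbols came from GENCODE M21 for 52403 of 52636 identifiers. Genes were kept by filterByExpr (minimum count 10, minimum total 15), scaled by TMM and tested with edgeR 4.0.16 (quasi-likelihood F test, R 4.3.3, limma 3.58.1) for group and clone over 15 samples, and for group within clone in a model of all combinations. A threshold of 0.05 was set on Benjamini-Hochberg adjusted p, and the procedure was tested on simulated data. The SE is the log2 fold change divided by the root of F. Total counts were 1552022 to 13004556 per sample, which sets the precision. Likeness used log2 CPM with a prior count of 2. All 9 members were named; wider pathway genes were named when called, at a mean of at least 1 CPM and among the 5 with the largest change of a comparison. Smad7, Gdf3, Bmp2 and Tcf3 are described outside this rule. So are Ski, Twsg1, Bmp1, Tob1 and Eng, listed as flagged, and Smurf2, Tcf4 and Tcf12, listed for a change of direction. The 9 genes and all lists were chosen with earlier results of these data known. Alternatives were other size factors, total counts, no filter, DESeq2 1.42.0, a replicate block, no clone term and leaving out each library; the legacy quasi-likelihood and leaving out the 4h libraries were added after seeing the data.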

Additional observations from a re-analysis of the deposited data

Results flagged for a closer look

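For the 9 genes and the pathway genes named by the rule, no sample stood apart from its group by the gap between it and its nearest neighbour, in 60 groups of 4 samples tested. The 0h group, with 3 samples, was not tested in this way. Each tested group holds 2 samples of each clone, so where the clones differ a single outlying sample can hardly be flagged. In 16 cases the response of a gene differed between the clones by the interaction term of edgeR's model (log2, clone 8 minus clone 4), with these values. They were 6 of 56 tested genes of the wider list in 4h vs 0h, 4 in 4h vs 2h and 6 in rev vs 4h, beside 3.87%, 3.14% and 2.80% of all tested genes, and 0 in the other 2 comparisons. Contrasts with 0h have 1 clone 4 sample at 0h.

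In 4h vs 0h the difference was 3.34 for Smad6 (adjusted p = 0.00616), 0.74 for Ski (0.0407), -2.13 for Fst (0.0054), -1.72 for Twsg1 (7.07e-05), -3.13 for Msx1 (0.0217) and -4.78 for Gata2 (0.000208). From pooled counts of clone 8, Msx1 at 4h was 0.824 of its 0h level (exact 95% interval 0.200 to 2.55) and Gata2 0.775 (0.190 to 2.38), counting error only. In 4h vs 2h it was -0.95 for Twsg1 (adjusted p = 0.00789), -2.29 for Bmp1 (0.0334), 1.31 for Tob1 (0.0038) and -3.89 for Gata2 (0.000468).

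In rev vs 4h the difference was -2.84 for Smad6 (adjusted p = 0.0303), -1.21 for Eng (0.014), 1.00 for Twsg1 (0.00596), 2.61 for Bmp1 (0.016), 2.94 for Msx1 (0.0155) and 3.57 for Gata2 (0.00104). The comparisons share the 4h libraries, so these are not separate observations. Depth, which was lowest in those libraries, moves with them, and its part was not tested.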

How the results depend on the processing

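With scaling by total counts, genes called went from 867 to 266 in 2h vs 0h, from 1500 to 759 in rev vs 0h and from 2492 to 761 between clones, and members called from 5 to 1 between clones (Bmp4 kept its call; Id2, Smad1, Smad5 and Smad6 lost theirs), from 2 to 1 in rev vs 0h, from 0 to 1 in rev vs 4h and from 1 to 0 for the clone differences in 4h vs 0h and in rev vs 4h. Direction reversed in 4h vs 0h for Smad5 (-0.43), Smurf2 (-0.39), Tcf4 (-0.30) and Gdf3 (-0.13), in 4h vs 2h for Tcf12 (-0.23), Tcf4 (-0.13) and Eng (-0.087), and in rev vs 4h for Tcf12 (0.099) and Tcf4 (0.018). Without the filter 1305 genes were called in 2h vs 0h, 1 member in rev vs 4h and 2 members for the clone difference in rev vs 4h. DESeq2 called 0 members for the clone differences in 4h vs 0h and rev vs 4h, as did the legacy quasi-likelihood for the latter, which called 1327 genes in 2h vs 0h. Without the clone term 427 genes were called in 2h vs 0h and 793 in rev vs 0h, and 1 member each in 4h vs 2h and rev vs 0h. Leaving out the 4h libraries gave 1529 genes in 2h vs 0h and 2 members between clones. In rev vs 0h it gave 2304 genes and 4 members, with Id1 and Smad6 gained. The replicate block gave 1 member in 4h vs 2h (Bmp4 1.15, adjusted p = 0.0556) and took Smad5 in 4h vs 0h to 0.30 (adjusted p = 0.0887); samples of the same clone and number did not deviate together (9 correlations of -0.19 to 0.26 between groups, 1 of them over 0.1) and share only a number. The causes were not tested.

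Without 1 library at a time, members called ranged from 2 to 4 in 2h vs 0h, likewise 2 to 4 at 4h against 0h, 1 to 2 in 4h vs 2h, 1 to 3 in rev vs 0h, 2 to 5 between clones, and 0 to 1 for each of the clone differences at 4h against 0h or 2h and in rev against 4h. Genes called ranged from 308 to 1077 in 2h vs 0h, 3847 to 5306 in 4h vs 0h, 4502 to 5347 in 4h vs 2h, 3285 to 4219 in rev vs 4h, 511 to 1716 in rev vs 0h and 2029 to 2427 between clones. Depth limits the 4h values most: there Id3, Bmp4 and Smad6 rest on 0 to 17 counts a library.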
